A study of Mus musculus with 6 samples.

Results

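The molybdenum enzymes of the mouse and the makers of their cofactor were followed in livers of mice without Nrf2 and of wild-type mice, as the 8 genes Aox1, Aox3, Xdh, Suox, Mocs1, Mocs2, Mocos and Gphn. Their members were the probe sets annotated to exactly 1 of these symbols, which gave 12 of the 45037 non-control probe sets of a 1-colour Affymetrix mouse array, for 8 of 18193 named genes. All 12 were among the 22519 probe sets bright enough to be tested, which stood for 11102 named genes. The knockout group held 3 arrays of liver RNA from mice labelled Nrf2 ko, and the wild-type group 3 arrays from mice labelled Nrf2 wt. Both groups were C57B/SV129 mice of 10 weeks, and each array carried RNA pooled from 3 animals, which makes pools the replicates. The labels give neither the sex of the animals nor the structure of the knockout allele, and they name no surgery or treatment. It is not stated whether pools shared animals.

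Molybdenum becomes active in animals only when bound to a pterin, the molybdenum cofactor, which is built in steps from GTP. Xanthine dehydrogenase and the aldehyde oxidases carry this cofactor together with FAD and iron-sulphur clusters, while sulphite oxidase carries it with a haem. In liver, aldehyde oxidases oxidise aldehydes and nitrogen heterocycles, many drugs among them, xanthine dehydrogenase makes uric acid from purines, and sulphite oxidase turns the toxic sulphite of sulphur amino acid breakdown into sulphate. Nrf2, the product of Nfe2l2, pairs as a transcription factor with small MAF proteins on antioxidant response elements of detoxification genes.

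The arrays matched their labels at the targeted gene. The brighter Nfe2l2 probe set had deposited intensities of 5.74, 7.40 and 6.90 in knockout pools and of 696, 598 and 625 in wild-type pools, a log2 difference of -5.64 ± 0.15 (SE) with a limma adjusted p of 2.22e-06. A second, dim probe set overlapped between genotypes at 0.14 ± 0.22. Trimmed mean array intensity spanned 92.0 to 131, with overlapping groups. Hepatocyte markers (Alb, Apoa1, Ttr, Cps1 and Tat) were bright on every array, with a summed normalised intensity of 52741 to 56044 in knockout pools and of 52633 to 53140 in wild-type pools. The 3′ to 5′ ratio of the actin control, which tracks RNA integrity, was 1.97 ± 0.03 in knockout pools and 1.86 ± 0.08 in wild-type pools (SD, n = 3 each), with no overlap and an exact permutation test, two-sided, at p = 0.1, the smallest that 3 against 3 can give. The same ratio of the Gapdh control was 0.77 ± 0.04 in knockout pools and 0.76 ± 0.01 in wild-type pools (SD). Its groups overlapped (exact two-sided permutation p = 0.9). In a bulk sample fewer cells of a type and less RNA per cell cannot be told apart.

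The aldehyde oxidase genes fell strongly without Nrf2, and they were the only members that passed the test. Of the 12 member probe sets, 2 passed a limma adjusted p of 0.05, those of Aox1 and Aox3, both lower in knockout pools, against 0.142% of all tested probe sets in either direction (0.0977% lower and 0.0444% higher). The members otherwise spread to both sides, 6 probe sets being lower and 6 higher by sign. Groups did not overlap for 3 member probe sets that were lower (background 6.57%) and for 2 that were higher (background 6.81%). By gene, taking the brightest probe set of each, 6 of 8 had an unadjusted p under 0.05, against 8.22% of all genes. Groups did not overlap for 5 of 8, 3 of them lower and 2 higher, against 6.55% of all genes lower and 7.38% higher. The members were chosen with earlier results of these data known, so these counts describe them and do not test the family.

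**Figure D1:**
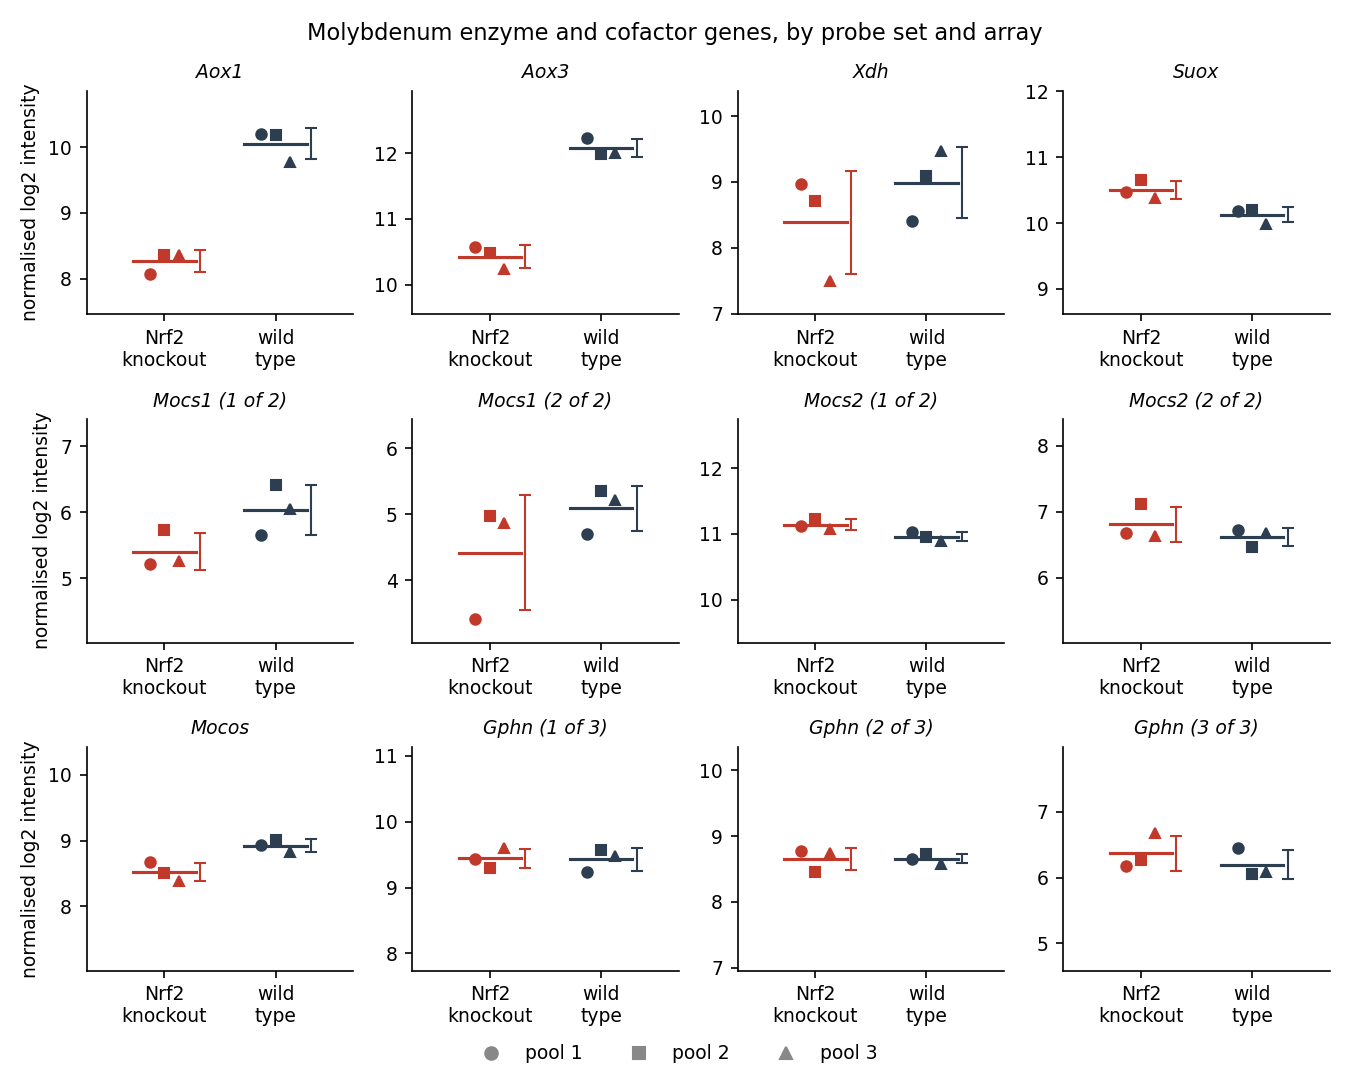
Quantile-normalised log2 intensity (y axis, a span of equal height in every panel) of the 12 probe sets on the 3 Nrf2 knockout and 3 wild-type arrays. Symbols mark pools 1, 2 and 3, horizontal lines are group means and bars are SDs. Aox1 and Aox3 are set far apart by genotype, Xdh spreads widely within both groups, and the brightest Gphn probe sets overlap throughout.

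Aox1 encodes the aldehyde oxidase that mice share with humans, a cytosolic molybdo-flavoenzyme. Its probe set (1419435_at) had deposited intensities of 223, 297 and 355 in knockout pools, against 1400, 974 and 1018 in wild-type pools. After quantile normalisation on the scale log2(intensity + 5.26), used for every log2 value here, these were 8.08, 8.36 and 8.36 in knockout pools and 10.20, 10.18 and 9.78 in wild-type pools. Every knockout pool lay more than 1 log2 unit below every wild-type pool. The log2 difference, knockout minus wild type throughout, was -1.78 ± 0.14 (SE, n = 3 per genotype), 3.44-fold lower, with a 95% interval of -2.10 to -1.46 and a limma adjusted p of 0.00185.

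Aox3 encodes a second aldehyde oxidase of mouse liver, whose human counterpart is a pseudogene. Its probe set (1418858_at) had intensities of 1257, 1311 and 1324 in knockout pools and of 5357, 3649 and 4648 in wild-type pools. Normalised, these log2 values were 10.57, 10.48 and 10.24 in knockout pools, against 12.23, 11.99 and 12.00 in wild-type pools. The knockout pools again lay together and far below the wild-type pools. The log2 difference was -1.65 ± 0.11 (SE, n = 3 per genotype), 3.13-fold lower, with a 95% interval of -1.90 to -1.40 and a limma adjusted p of 0.000869. Among the 12 genes called lower at their brightest probe set, Aox1 had the fall of rank 5 and Aox3 that of rank 7. By p-value Aox3 ranked 2 and Aox1 ranked 6 among all 11102 genes. With each pool left out in turn both genes stayed past the threshold, with a highest adjusted p of 0.0224 for Aox1 and 0.00904 for Aox3.

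The falls of Aox1 and Aox3 could not be told apart in size. The log2 difference of Aox1 minus Aox3 within an array was -2.49, -2.12 and -1.87 in knockout pools and -2.03, -1.81 and -2.22 in wild-type pools. These values overlapped, and their means differed by -0.14 (exact two-sided permutation p = 0.6, n = 3 per genotype). With 3 against 3 pools this permutation test cannot go below p = 0.1, so equal falls are not shown. Without knockout pool 1 the difference was 0.02. The aldehyde oxidase genes are close paralogs, and whether their probes bind each other's transcripts was not analysed here.

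Markers that differed between the same arrays are given beside the aldehyde oxidases. In mice, liver aldehyde oxidase is known to be more active in males. The male-biased liver genes were lower in knockout pools by sign in 9 of 9 tested, against 48.6% of all genes. Of the 9, 0 passed the limma threshold (background 0.144% of all genes), and their median was -0.31. Their summed normalised intensity was 15538 to 24593 in knockout pools and 28808 to 30560 in wild-type pools, lowest in knockout pool 2. The oxysterol hydroxylase gene Cyp7b1 was at a log2 difference of -1.11 ± 0.28 (SE), Cyp4a12a at -0.73 ± 0.26, Elovl3 at -0.44 ± 0.19 and the Y-linked Eif2s3y at -0.22 ± 0.10 (limma adjusted p from 0.375 to 0.672). Every pool held RNA of the Y-linked Eif2s3y, at 432 to 659 in knockout pools and at 497 to 786 in wild-type pools. The 3 probe sets of the female-biased gene Xist reached at most 13.9 on any array. Stellate cell markers were higher by sign in 6 of 6, where 48.6% of all genes were lower, and 0 passed the threshold (background 0.144%). Their summed intensity was 3099 to 3425 in knockout pools and 2800 to 3042 in wild-type pools. These signs are of the brightest probe sets after normalisation. Mean deposited intensity was lower in knockout pools for Lrat, Reln and Col3a1, and higher for Dcn, Col1a1 and Des. A second tested probe set was at -0.18 ± 0.28 for Col3a1 and at 0.09 ± 0.20 for Lrat. Probe sets under the filter lay on both sides. The part of these markers, and of the actin ratio, in the values of the members was not tested.

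The genes closest in pattern to the aldehyde oxidases were 3 other metabolic enzymes that passed the test. Likeness was measured as the root mean square difference between log2 values centred on each gene's mean over the 6 arrays, taking the brightest probe set of each gene. The nearest gene to Aox1 was Aox3 at 0.23, then the glucuronosyltransferase gene Ugt2b35 at 0.24 and the microsomal epoxide hydrolase gene Ephx1 at 0.26. The nearest to Aox3 was the malic enzyme gene Me1, which makes cytosolic NADPH, at 0.17, then Ephx1 at 0.22 and Aox1 at 0.23. The 6 arrays are shared by all these genes, so likeness and genotype difference come from the same values. Ugt2b35 was 2.84-fold lower (log2 difference -1.51 ± 0.14, SE), Ephx1 2.46-fold (-1.30 ± 0.10) and Me1 3.43-fold (-1.78 ± 0.14), with limma adjusted p of 0.00289, 0.00169 and 0.00169. Of the other members, Mocs1 ranked 102 in likeness to Aox1, at a distance of 0.65, and Mocos 313, at 0.72. Xdh ranked 3967 at 0.89, Gphn 5615 at 0.93, Mocs2 8497 at 0.99 and Suox 10196 at 1.09.

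The upstream sequences of the genes that fell are shown because antioxidant response elements are where Nrf2 binds. The 250 bases before the start of Aox1 and Aox3, from RefSeq on build GRCm38.p6, are printed 5′ to 3′ with the letters TGACTCA, on either strand, in capitals. These letters alone are not the element, because they lack the GC that ends its core, TGACNNNGC.
Aox1 upstream, GRCm38.p6 chr1:58029719-58029968, plus strand: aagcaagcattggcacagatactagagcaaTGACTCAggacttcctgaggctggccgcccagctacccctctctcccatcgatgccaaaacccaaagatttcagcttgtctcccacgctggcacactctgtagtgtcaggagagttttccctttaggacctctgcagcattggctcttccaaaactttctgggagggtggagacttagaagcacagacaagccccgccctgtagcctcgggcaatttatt
Aox3 upstream, GRCm38.p6 chr1:58112886-58113135, plus strand: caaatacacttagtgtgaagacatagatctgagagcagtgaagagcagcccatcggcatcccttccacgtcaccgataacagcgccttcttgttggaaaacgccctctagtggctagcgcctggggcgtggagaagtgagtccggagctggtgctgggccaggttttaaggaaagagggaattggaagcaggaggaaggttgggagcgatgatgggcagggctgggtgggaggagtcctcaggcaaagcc
The core letters of the element, TGACNNNGC, were searched on both strands, with the fuller TGACTCAGC, which is a case of the core, and with TGACTCA, which the fuller form contains. Aox1 held TGACTCA once, 220 bases before the start, and neither longer form, and Aox3 held none of the 3. Aox4, whose probe set was under the filter, held TGACTCA 48 bases before its start, and Aox2 held none. The windows of Ephx1, Me1 and Ugt2b35, which fell alongside, also held none. Over 32851 upstream windows of the same length, 4.46% held TGACTCA, 10.2% the core and 0.39% the fuller form. Among the other members, Suox, Mocs1 and Gphn held none of them, and Mocs2 held 1 core match as TGACCCGGC on the opposite strand. Xdh and Mocos were not searched here. A match of letters is a description of these windows and says nothing on binding.

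Of 20 tested genes beside the aldehyde oxidases, 0 passed the test, which only 0.144% of all genes passed. In mouse the family is a run of 4 genes on chromosome 1, in the order Aox1, Aox3, Aox4, Aox2, whereas Nfe2l2 is on chromosome 2. The probe set of Aox4, an aldehyde oxidase of skin and eye glands, had intensities of 5.35, 4.32 and 0.295 in knockout pools and of 5.57, 4.51 and 0.991 in wild-type pools, under the filter. No probe set was annotated to Aox2 alone here. Of the 10 tested genes on each side, 9 of 20 were lower by sign, against 48.6% of all genes. Past the limma threshold were 0, and 1 had an unadjusted p under 0.05 (background 8.22% of all genes). Their median log2 difference was 0.01, as for all tested genes (0.01). The nearest tested gene before Aox1, Kctd18, was at -0.48 ± 0.17 (SE, limma adjusted p = 0.6). Groups did not overlap for 5 of the 20, against 13.9% of all genes, with Kctd18, Fam126b and Bzw1 lower and Ankrd44 and Ppil3 higher. Bzw1 and Ppil3 are named after their values were seen. Hspe1 was at 0.26 ± 0.13, Ankrd44 at 0.29 ± 0.14 and Fam126b at -0.25 ± 0.12.

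**Figure D2:**
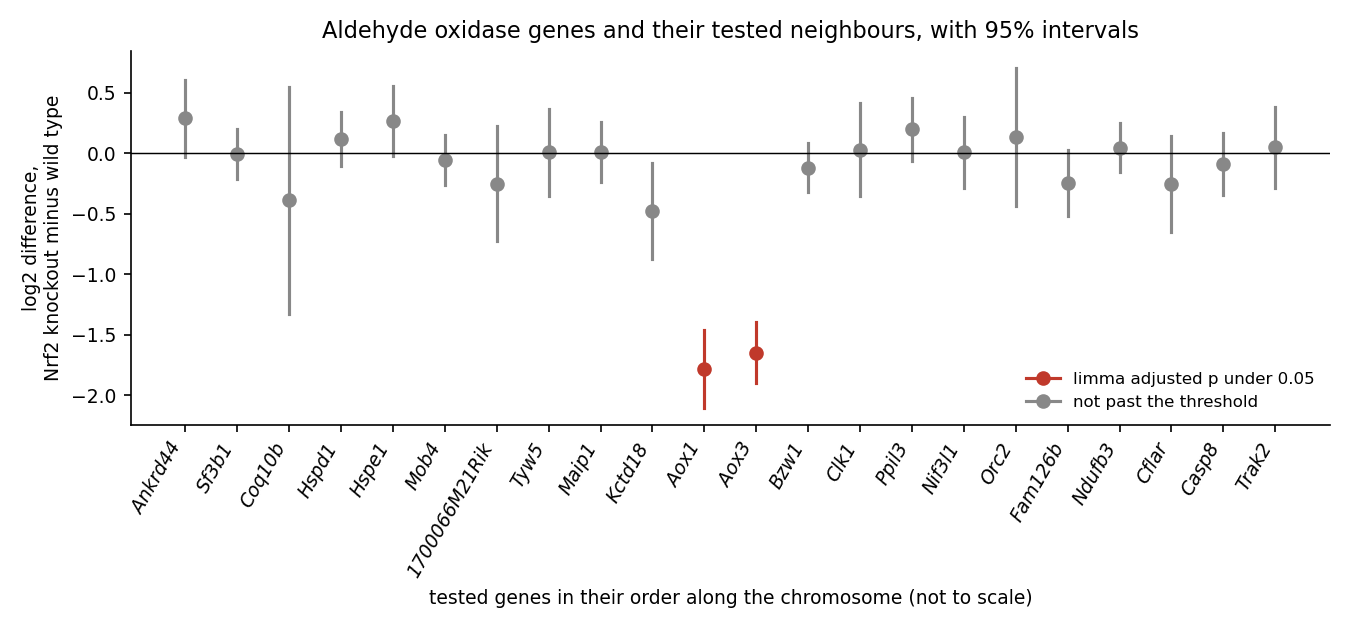
Log2 difference, Nrf2 knockout minus wild type (y axis), of Aox1, Aox3 and the 10 tested genes on each side, in gene order (x axis, not to scale), at the brightest probe set of each gene with its 95% interval. Aox1 at -1.78 and Aox3 at -1.65 stand below all 20 neighbours, whose lowest value is -0.48 for Kctd18.

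Xdh, the third molybdo-flavoenzyme, varied between pools and gave no clear difference. Its intensities were 411, 380 and 190 in knockout pools, against 405, 457 and 819 in wild-type pools. Normalised, they were 8.96, 8.71 and 7.49 in knockout pools and 8.41, 9.09 and 9.47 in wild-type pools. The groups overlapped, with knockout pool 3 the lowest and wild-type pool 3 the highest of the 6 arrays. The log2 difference was -0.60 ± 0.38 (SE, n = 3 per genotype), with a 95% interval of -1.48 to 0.27 and a limma adjusted p of 0.758. Leaving out knockout pool 3 gave -0.16, and leaving out wild-type pool 3 gave -0.36. The interval of Xdh takes in no change. Its lower end, -1.48, reaches just inside the intervals of Aox1 and Aox3, which end at -1.46 and -1.40.

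Whether the falls of the aldehyde oxidases and of Xdh differ could not be decided here. With 3 against 3 pools the exact permutation test cannot go below p = 0.1. Within an array, Aox1 minus Xdh was -0.88, -0.34 and 0.87 in knockout pools and 1.79, 1.08 and 0.31 in wild-type pools, a difference of means of -1.18 (exact permutation p = 0.2). Aox3 minus Xdh was 1.60, 1.77 and 2.74 in knockout pools and 3.83, 2.90 and 2.53 in wild-type pools, a difference of means of -1.04 (exact permutation p = 0.2). Both sets of values overlapped between genotypes. Adjusted over the 3 comparisons of this kind, the p-values were 0.6 for Aox1 against Aox3 and 0.3 for each oxidase against Xdh.

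Suox, which encodes sulphite oxidase of the mitochondrial intermembrane space, was the member with the largest positive difference. Its normalised log2 values were 10.47, 10.65 and 10.38 in knockout pools, against 10.19, 10.20 and 9.99 in wild-type pools. The groups did not overlap on this scale, although the deposited intensities did, at 1179, 1481 and 1464 in knockout pools and 1389, 990 and 1190 in wild-type pools. The log2 difference was 0.37 ± 0.10 (SE, n = 3 per genotype), with a 95% interval of 0.14 to 0.60. It did not pass over all probe sets (limma adjusted p = 0.436).

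**Figure D3:**
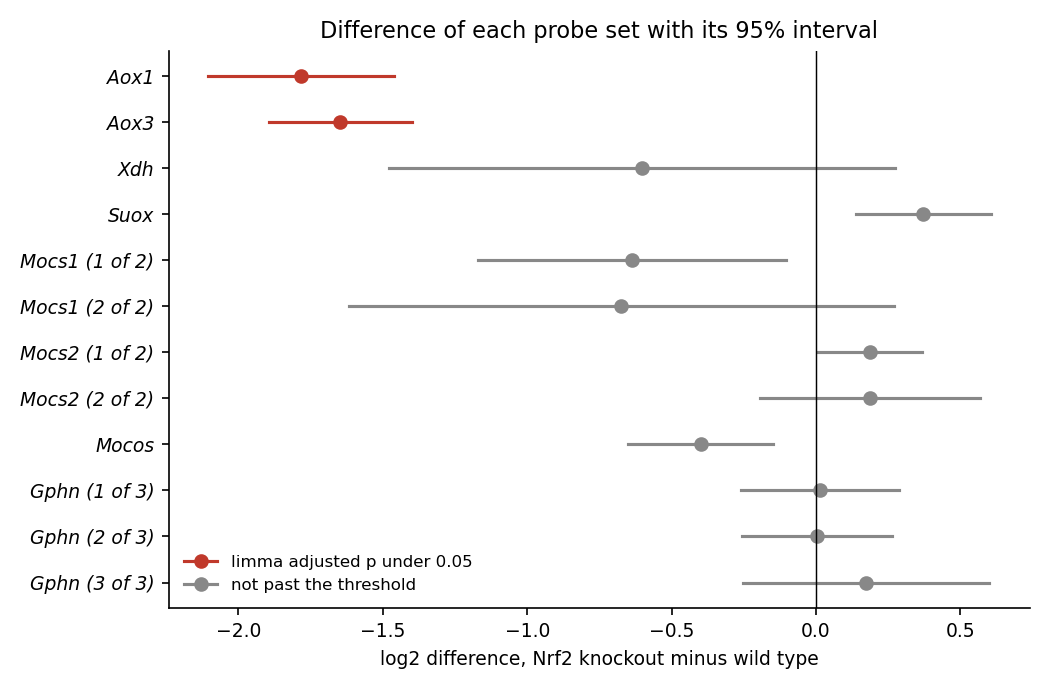
Log2 difference, Nrf2 knockout minus wild type (x axis), of each member probe set with its 95% interval, numbered from the brightest where a gene has several. The intervals of Aox1 and Aox3 end at -1.46 and -1.40, and those of the brightest Xdh and Gphn probe sets cross 0.

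None of the 4 genes that make the cofactor passed the test, and their signs differed. Mocos encodes the sulphurase that adds the last sulphur to the cofactor of aldehyde oxidases and xanthine dehydrogenase, without which these enzymes are inactive. Its intensities were 338, 331 and 363 in knockout pools and 582, 429 and 524 in wild-type pools. Normalised, they were 8.67, 8.51 and 8.39 in knockout pools, against 8.93, 9.01 and 8.83 in wild-type pools. The groups did not overlap, and the log2 difference was -0.40 ± 0.11 (SE, n = 3 per genotype), with a 95% interval of -0.65 to -0.15. It did not pass (limma adjusted p = 0.437), and with each pool left out the difference stayed between -0.47 and -0.33.

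Mocs1 encodes the enzymes of the opening step, which turn GTP into the cyclic pterin precursor. Its brighter probe set had normalised values of 5.22, 5.73 and 5.26 in knockout pools and of 5.66, 6.41 and 6.05 in wild-type pools. The groups overlapped by a single pair of pools, knockout pool 2 and wild-type pool 1. The log2 difference was -0.64 ± 0.23 (SE, n = 3 per genotype, 95% interval -1.17 to -0.11, limma adjusted p = 0.6). The dimmer probe set was at -0.67 ± 0.41, and its knockout pool 1, with an intensity of 4.83, lay far below the 24.5 and 25.8 of the other knockout pools. Both probe sets are dim, so the added constant holds these differences down.

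Mocs2, whose transcript encodes both subunits of the molybdopterin synthase that puts sulphur into the precursor, varied least between pools among the brightest probe sets of the 8 genes, with an SD of 0.08 in knockout pools and 0.07 in wild-type pools. The brighter probe set had normalised values of 11.12, 11.23 and 11.08 in knockout pools and of 11.03, 10.95 and 10.89 in wild-type pools. These did not overlap, at a log2 difference of 0.19 ± 0.08 (SE, n = 3 per genotype, 95% interval 0.01 to 0.37, limma adjusted p = 0.638). The deposited intensities of this probe set did overlap, at 1893, 2253 and 2370 in knockout pools and 2403, 1718 and 2214 in wild-type pools. The dimmer probe set gave the same difference, 0.19 ± 0.17, with overlapping groups.

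Gphn encodes gephyrin, which inserts molybdenum into the cofactor and in neurons also anchors inhibitory receptors. The brightest of its 3 probe sets had normalised values of 9.44, 9.30 and 9.60 in knockout pools and of 9.24, 9.57 and 9.48 in wild-type pools, fully interleaved. The log2 difference was 0.01 ± 0.12 (SE, n = 3 per genotype), and its 95% interval ran from -0.26 to 0.29. The other probe sets were at 0.00 ± 0.11 and 0.17 ± 0.19. With the arrays centred on their medians, the brightest was at -0.04.

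Further genes of the molybdenum pathway were mostly lower by sign, by small amounts. Values after ± are SEs in what follows. Of 8 listed, 6 were tested, 5 were lower by sign (48.6% of all genes), and 0 passed the limma threshold (background 0.144% of genes). At an unadjusted p under 0.05 there was 1 (background 8.22%), and the median log2 difference was -0.13. Cyb5b, the outer mitochondrial membrane cytochrome that passes electrons to the molybdenum enzymes mARC1 and mARC2, was at -0.31 ± 0.10 (SE, adjusted p = 0.539). All 3 of its probe sets were lower with groups that did not overlap (background 6.57% of probe sets), the others at -0.31 and -0.39. The reductase gene of that chain, Cyb5r3, was at -0.26 ± 0.12 at its brightest probe set. Its other tested probe sets were at -0.08 ± 0.12 and -0.08 ± 0.13. Mocs3, which supplies sulphur to molybdopterin synthase, was at -0.17 ± 0.13, and Nfs1, the cysteine desulphurase, at -0.09 ± 0.10. Mtarc1 and Mtarc2 themselves, chosen after their values were seen, were at 0.02 ± 0.06 and -0.07 ± 0.09.

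The genes around Xdh and around the cofactors it shares with the aldehyde oxidases showed no called change. In purine breakdown and salvage, 7 of 13 tested genes were lower by sign, with a median of -0.01. Of these genes 0 passed and 0 had an unadjusted p under 0.05 (background 0.144% and 8.22% of all genes). Uox, which degrades the uric acid that Xdh makes, was at 0.15 ± 0.07, Ampd3 at -0.47 ± 0.28, Nt5c2 at 0.22 ± 0.16 and the salvage gene Hprt at -0.10 ± 0.08. Among 12 tested genes of FAD and iron-sulphur supply, 7 were lower by sign, 0 passed, and the median was -0.01, with 2 lower and 1 higher at an unadjusted p under 0.05. The cytosolic iron-sulphur assembly gene Ciao1 was at 0.33 ± 0.09, the scaffold gene Iscu at -0.22 ± 0.08, Glrx5 at -0.28 ± 0.11 and the ferredoxin gene Fdx1 at -0.19 ± 0.09 (limma adjusted p from 0.439 to 0.701).

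Genes of sulphur metabolism around sulphite oxidase lay on the same side as Suox for the most part. Of 10 tested genes 8 were higher by sign, where 48.6% of all genes were lower, and 0 passed (background 0.144% of all genes). At an unadjusted p under 0.05 there were 3 higher and 0 lower (background 8.22% of all genes, either direction). The median was 0.13, and 0.27 without knockout pool 3. On the normalised scale groups did not overlap for 4 genes, all higher (background 7.38%), while the deposited intensities of all 4 overlapped. These were the transsulphuration genes Cth at 0.47 ± 0.13 and Cbs at 0.45 ± 0.13, the sulphide oxidase gene Sqor at 0.28 ± 0.09 and the rhodanese gene Tst at 0.13 ± 0.07 (limma adjusted p from 0.439 to 0.744). On deposited intensities knockout pool 2 was the highest array for Cth, at 8781, and for Cbs, at 3065. The mean deposited intensity of Tst was 2005 in knockout pools and 2054 in wild-type pools.

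Nicotinamide genes bear on the aldehyde oxidases because these enzymes turn methylated nicotinamide into pyridones. Of 12 tested genes, 7 were higher and 5 lower by sign, 0 passed (background 0.144%), and the median was 0.01. Nnmt, which makes the methylated nicotinamide, had intensities of 727, 3392 and 1333 in knockout pools, against 599, 944 and 536 in wild-type pools. Knockout pool 2 stood far above the rest and the groups overlapped. Its log2 difference was 1.28 ± 0.51 (SE, n = 3 per genotype, limma adjusted p = 0.612). Nmrk1 was at -0.39 ± 0.18, Nampt at -0.24 ± 0.13 and Nmnat3 at 0.41 ± 0.24. The dimmer tested probe sets of Nmrk1 had the opposite sign, at 0.37 ± 0.28 and 0.23 ± 0.25.

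**Figure D4:**
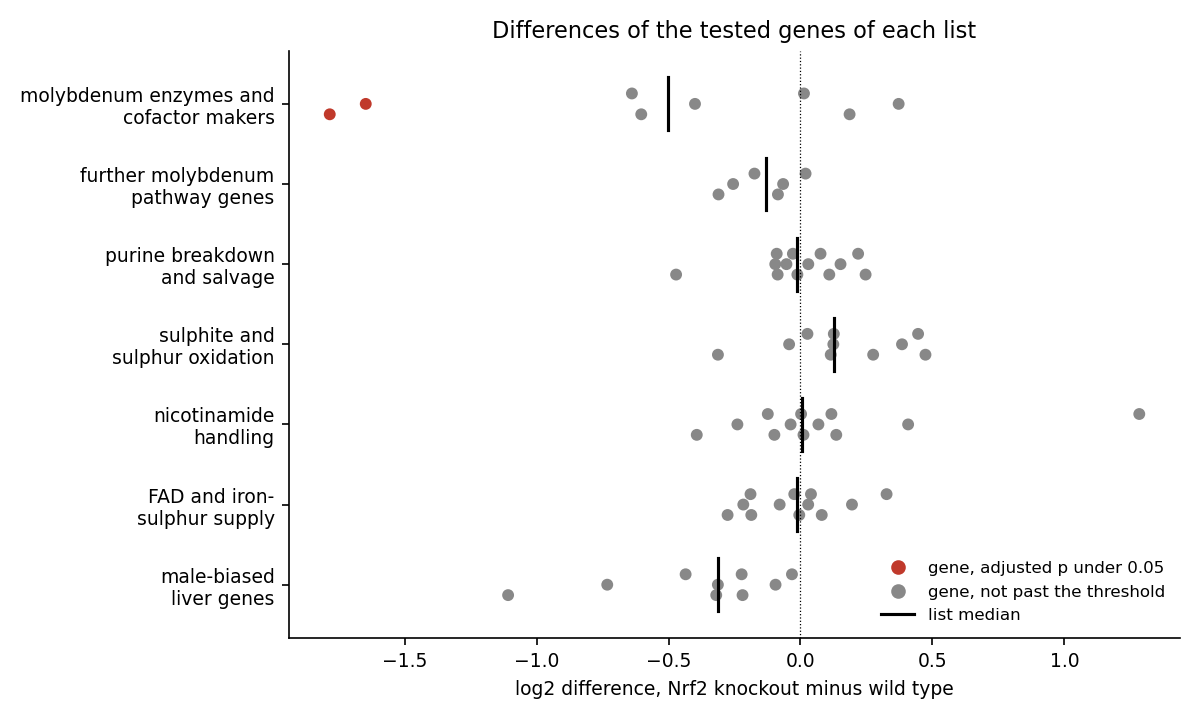
Log2 difference, Nrf2 knockout minus wild type (x axis), of each tested gene at its brightest probe set, by list (rows), with the list median as a black bar and genes past a limma adjusted p of 0.05 in red. Aox1 and Aox3 are the red points, the sulphur oxidation list has its median at 0.13 and the male-biased list at -0.31.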

How the data were processed

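The authors deposited linear intensities between 0.0174 and 16555, and GCOS 1.4 appears in the submitters' processing notes. How GCOS scaled them was not given in the sources used here. Detection calls were not used here, and the number of arrays limits the precision. Names came from the platform annotation, in which 34945 probe sets had 1 symbol, 932 several and 9160 none here. Chromosomes and gene order came from a mouse gene table of assembly GRCm38.p6.

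From the deposited intensities, log2(intensity + 5.26) was computed, with the 25th percentile of intensities as the constant, then quantile normalised after leaving out 64 control probe sets. Probe sets whose mean reached the median were tested with limma 3.58.1 in R 4.3.3 (lmFit, eBayes with an intensity trend, Benjamini-Hochberg over all 22519), a procedure tested on simulated data. A gene took its brightest tested probe set. Differences are on this scale and understate changes of dim probe sets. Ratios within arrays were compared by exact permutation tests.

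The members and lists were chosen with earlier results of these data known. Named genes were all members, Nfe2l2, up to 4 genes of each list with the smallest p, and the 3 genes most like Aox1 and Aox3. Alternatives were median centring, a pseudocount of 1.31 or 21.0, no filter or one at the 70th percentile, no trend, weights per array, a replicate block, the mean of probe sets, and each pool left out.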

Additional observations from a re-analysis of the deposited data

How the results depend on the processing

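Aox1 and Aox3 were past the threshold under every alternative run, with log2 differences from -1.87 to -1.73 and from -1.68 to -1.64 with all pools, from -1.92 to -1.69 and from -1.71 to -1.56 with a pool left out, and a highest adjusted p of 0.0311, without the intensity trend. No other member passed under any of them. Leaving out a pool gave ranges of -0.90 to -0.16 for Xdh, 0.30 to 0.43 for Suox, -0.83 to -0.45 for Mocs1, 0.14 to 0.23 for Mocs2 and -0.47 to -0.33 for Mocos. Gphn was at -0.0365 with median centring and between -0.0834 and 0.0861 with a pool left out. Aox1 minus Aox3 ran from -0.27 to 0.0209, Aox1 minus Xdh from -1.67 to -0.79 and Aox3 minus Xdh from -1.40 to -0.69.

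The number of probe sets past the threshold, 32, became 20 without filtering, 19 under the stricter filter (70th percentile), 18 without the trend, 41 with median centring and 18 to 29 with a pool left out. The dim Mocs1 could not be given under the stricter filter. The lists of pathway genes and neighbours had no called gene under any alternative run. The purine median was -0.0347 with median centring, -0.0203 with no filter, 0.0320 with the stricter filter and 0.00373 with array weights, and the median of the neighbours was -0.0456 with median centring. With a pool left out, medians ran from -0.0445 to -0.00346 for purine genes, -0.0439 to 0.0108 for neighbours, -0.0249 to 0.0612 for nicotinamide and 0.0898 to 0.27 for sulphur genes; the cause was not tested.

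The replicate numbers were not taken as pairs: deviations of same-numbered pools correlated at 0.13, 0.05 and 0.25, and knockout pool 2 correlated best with wild-type pool 1. Knockout pools 1 and 3 did correlate best with the wild-type pool of their own number. With the replicate block, 32 probe sets passed, and the adjusted p was 0.00864 for Aox1 and 0.000724 for Aox3.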
